A study of Sparus aurata with 9 samples.

Results

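The enzymes of glycolysis and of glycogen storage and breakdown were followed in white muscle of gilthead seabream (Sparus aurata). Members were all gene models whose deposited description starts with the name of a glycolytic enzyme from hexokinase to pyruvate kinase, L-lactate dehydrogenase, glycogen, phosphoglucomutase or phosphorylase b kinase. This rule used descriptions only, no measured values, and took 128 of the 61849 gene models. The juvenile fish had been kept for 8 months in 1 of 3 tanks, at minimal flow (controls), or under a flow that made them swim at 1 or 2 body lengths per second (1 BL/s and 2 BL/s). From each tank 3 fish of similar size and normal morphology were sequenced as separate libraries. Each group came from 1 tank, so that tank and flow cannot be told apart, and p-values measure the spread between fish of 1 tank.

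White muscle makes up most of the fillet of a seabream and works mainly during bursts, when it splits its own glycogen and ferments glucose units to lactate. Glycogen phosphorylase, switched on by phosphorylase b kinase, releases glucose 1-phosphate, and the debranching enzyme clears the branch points. Phosphoglucomutase turns the product into glucose 6-phosphate, which passes through the glycolytic enzymes to pyruvate, and lactate dehydrogenase regenerates the NAD that glyceraldehyde-3-phosphate dehydrogenase needs. Glycogenin and glycogen synthase rebuild the store. In bulk RNA, fewer cells of a type and less RNA per cell cannot be told apart.

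The libraries held between 3660245 and 5267310 counts per fish. The fast white muscle markers (fast myosin heavy chain, parvalbumin, fast troponins and muscle creatine kinase, 55 of 88 rows with counts) took between 224553 and 269658 CPM (counts scaled by library size) in every fish, so that the defining markers of the labelled tissue were abundant. In a principal component analysis, fish 3 at 1 BL/s had a score of 53.6 on the first axis, which held 30.8% of the variance, and the others scored −15.0 to −0.41. Its models of giant muscle proteins (titin, nebulin, ryanodine receptor, dystrophin and obscurin, 21 of 129 rows with counts) summed to 6594 CPM, against 11963 to 16148 in the others. Fish 2 at 2 BL/s carried slow and red muscle markers (12 of 32 rows with counts) at 261 CPM, against 1.52 to 15.8 in the others. Control fish 2 scored 35.8 on the second axis, and the others −16.8 to 6.29. For some members described below in which such a fish was the highest or lowest, the value without it is given too. For the 8 members with at least 100000 counts, the range at 1 BL/s without fish 3 is given. The TMM factor of fish 3 at 1 BL/s was the lowest of all fish (0.811) and that of fish 2 at 2 BL/s the highest (1.21), so that orders of single fish among abundant members can differ between normalized counts and shares of counts.

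Counts were found for 48 of the 128 members, and 80 were at 0 in every fish. Of the 48, 16 summed to at least 1000 counts over the 9 fish, and 8 had fewer than 10. The filter on low counts kept 25 members in each comparison with the controls and 27 in the comparison of 2 vs. 1 BL/s. The rule found no model described as 6-phosphofructokinase, so that this regulatory step of glycolysis is not analysed here. It also took 7 rows of glycogen synthase kinase-3, a signalling kinase, and 1 row of enolase-phosphatase, an enzyme of another pathway, and all 8 were at 0 in every fish. Models outside the rule whose description starts with glyceraldehyde-3-phosphate testis or with phosphofructo summed to 756 counts.

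Together the members took 34.7% of all counts, and 5 of the 10 most abundant gene models were among them. Glyceraldehyde-3-phosphate dehydrogenase (GAPDH), which makes the NADH of the pathway, held 17.4% of all counts. L-lactate dehydrogenase held 3.85%, triosephosphate isomerase 3.49%, phosphoglycerate mutase 2.69%, phosphoglucomutase 2.56%, pyruvate kinase 2.30% and glucose-6-phosphate isomerase 1.81%. Phosphoglycerate kinase followed with 0.366%, phosphorylase b kinase with 0.174%, the debranching enzyme with 0.0241% and glycogen synthase with 0.0131%. These are shares of counts, not of transcripts, since no gene lengths were used. The study reports that only a minority of the reads could be mapped, so that they are shares of the counted reads. In each of the 7 steps with the largest shares, 1 model held at least 98.7% of the counts of the step.

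At the other end, 5 steps were nearly empty in the count tables. Over all 9 fish, aldolase had 1003 counts in 4 models, enolase 860 in 6, hexokinase 377 in 5, glycogen phosphorylase 158 in 4 and glycogenin 31 in 2. Aldolase and enolase are enzymes without which the chain does not run, yet their counts were far below the 6923886 of GAPDH. The muscle form of lactate dehydrogenase (A chain) was the only one of the 6 lactate dehydrogenase rows with counts. According to the study, only a minority of the reads could be mapped to the reference. The part of this in the low counts was not tested, nor was any other cause.

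By fish, the members took 30.9%, 36.3% and 33.9% of the counts in control fish, 32.6%, 34.4% and 34.0% in fish of the 1 BL/s tank, and 36.2%, 37.9% and 37.6% in those of the 2 BL/s tank. The means were 33.7% ± 2.70, 33.6% ± 0.906 and 37.2% ± 0.931 (SD, n = 3 fish each). All fish at 2 BL/s lay above all fish at 1 BL/s, and control fish 2 overlapped with them. At 2 BL/s, 10 of 32 tested white muscle marker models, of which none is a member, were lower than in the controls at an unadjusted p of 0.05 and 0 higher, where 2.71% of all models were called as lower and 1.75% as higher, and the part of this in the members' share was not tested. With total counts as the only scaling, the median of all models tested also shifted, by 0.23 on the log2 scale at 2 BL/s against either other group, so that shares and TMM-normalized values answer different questions.

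**Figure D1:**
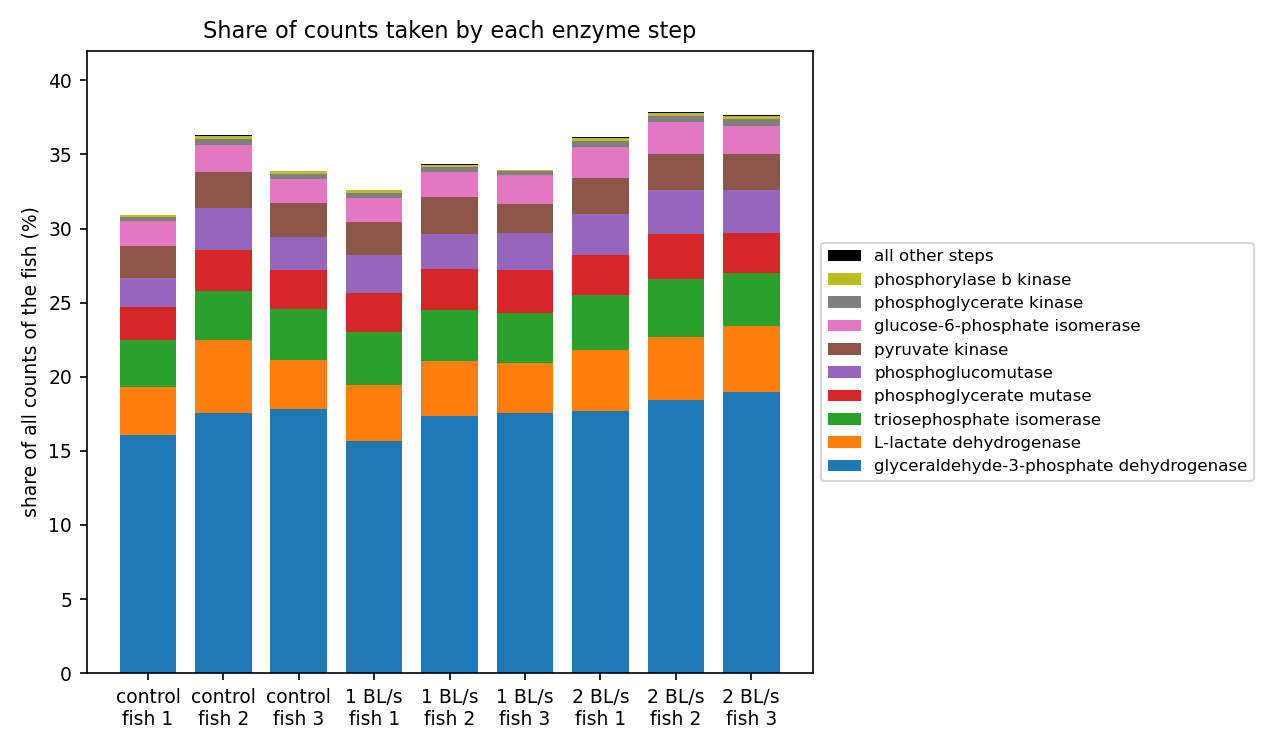
Share of all counts of a fish (%, vertical axis) taken by each enzyme step, stacked, in the 9 fish. GAPDH is the widest band in every fish, and the stacks reach 36.2% to 37.9% at 2 BL/s against 30.9% to 36.3% in the controls.

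The remaining values are normalized counts, that is counts divided by the TMM-scaled library size (TMM sets libraries to a common level by the models that change least), and each pair of groups (6 fish) was compared with the quasi-likelihood test of edgeR. A call is an unadjusted p below 0.05, the study's threshold, and the adjusted p is Benjamini-Hochberg over all models tested. Named below are, by rule, the members called, the most counted member of each step and all with at least 1000 counts. Hexokinase-2-like, the muscle and brain forms of glycogen phosphorylase, the kinase beta subunit, the second aldolase A model, aldolase B, phosphoglycerate mutase 1, the sister models of beta-enolase and the genes outside the module were named after their values were seen.

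Swimming at 1 BL/s was compared with minimal flow in 25 members. There 1 member was higher and 0 were lower, where 4.02% of all 3902 models were called, 1.97% as higher and 2.05% as lower. Of the 25 members tested at 2 BL/s vs. controls, 0 were called by edgeR at an unadjusted p, by DESeq2 or by limma-trend, while edgeR called 4.46% of all 3947 models, 1.75% as higher and 2.71% as lower. In the comparison of 2 vs. 1 BL/s, 1 of 27 members was higher and 2 were lower, where 4.24% of all 3963 models were called, 1.97% as higher and 2.27% as lower. The members' count was near the background in the first comparison, below it in the second and above it in the third, where it rests on 3 calls. All 3 calls between the speeds were lost without fish 3 at 1 BL/s, where beta-enolase was called instead, and all 3 when fish 2 of the 2 BL/s tank was left out. Hexokinase-1-like was the only one kept when fish 1 of that tank was left out. With total counts as the scaling the 3 calls were 3 higher and 0 lower, where 194 of all 3963 models were called. Those members were hexokinase-1-like, the kinase gamma subunit and phosphoglycerate kinase 1. No member and 0% of all models passed the adjusted threshold in any of the 3 comparisons by edgeR, with smallest adjusted p-values among members of 0.966, 0.996 and 0.897.

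The members as a list stayed close to all models. Their median log2 fold change was −0.07 at 1 BL/s (−0.01 over all models), −0.06 at 2 BL/s (−0.00 over all models) and 0.00 between the speeds (0.03 over all models). Of the 25 members tested, 11 had a positive and 14 a negative value at 1 BL/s, while 9 were positive and 16 negative at 2 BL/s. The 2 comparisons share their control fish. The fish at 1 BL/s lay wholly above the controls for 1 member and wholly below for 0, where 11.0% of all models did not overlap, 6.05% above and 4.92% below. The fish at 2 BL/s lay wholly above the controls for 0 members and wholly below for 1, where 9.75% of all models did not overlap, 4.36% above and 5.40% below. Between the speeds, 3 members did not overlap, all higher at 2 BL/s, where 10.9% of all models did not overlap, 5.10% above and 5.83% below.

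**Figure D2:**
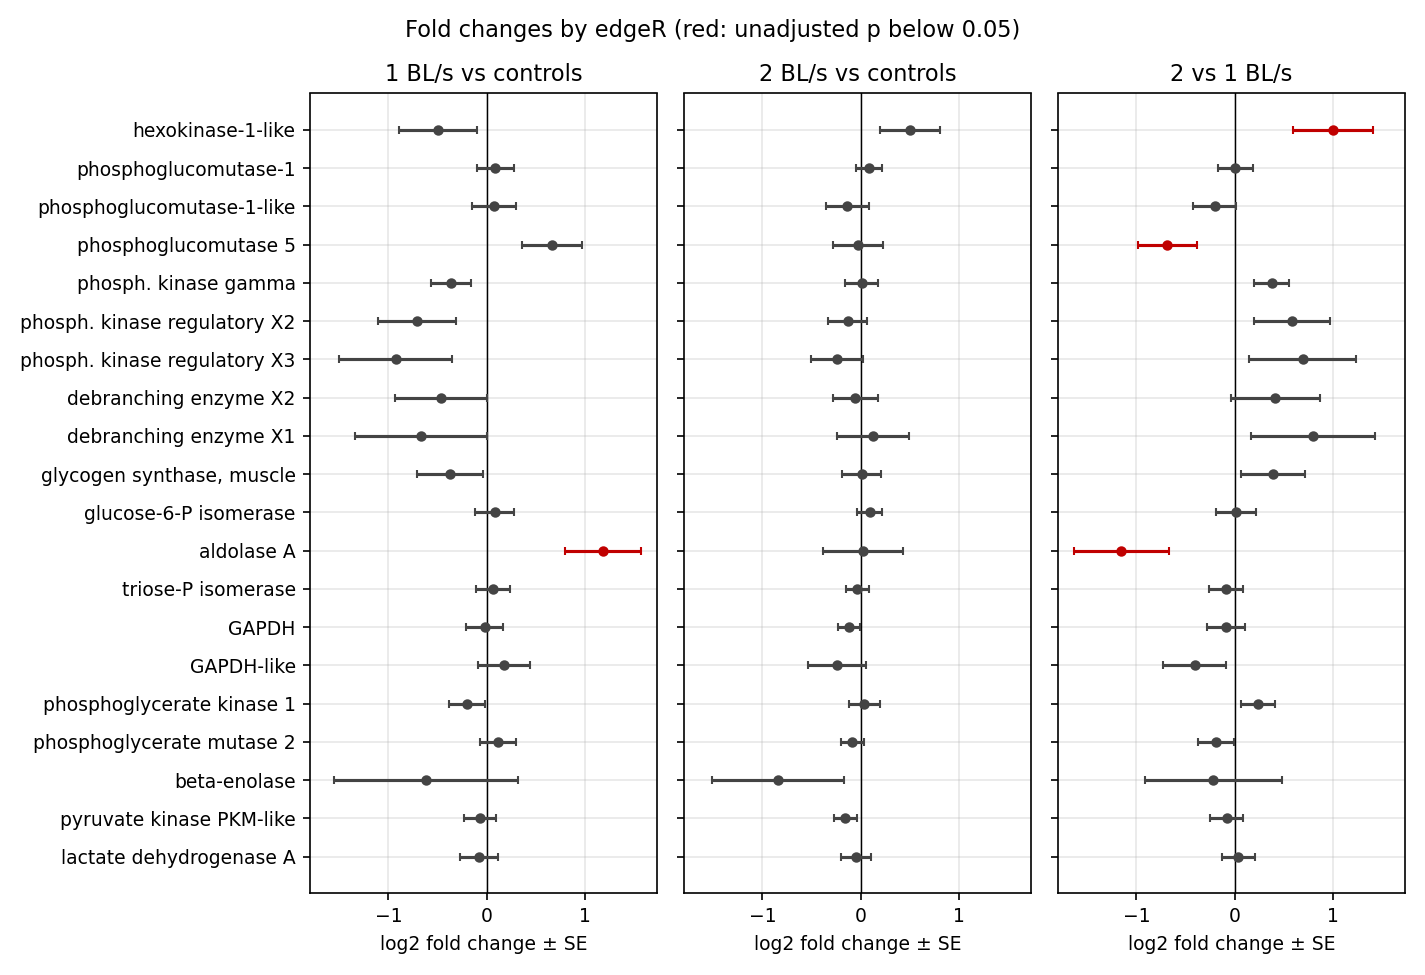
Log2 fold change (horizontal axis, log2 units) with its standard error for the 20 members named by rule and tested, in 3 comparisons. Red points passed an unadjusted p of 0.05, and those are aldolase A at 1 BL/s (1.18), and hexokinase-1-like (1.00), phosphoglucomutase 5 (−0.69) and aldolase A (−1.15) between the speeds.

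Glucose enters the pathway through hexokinase, which phosphorylates it inside the fibre. Of 17 hexokinase rows 5 had counts, and hexokinase-1-like isoform X2 (Sa_50406.1.1) held 83.8% of them. Its normalized counts were 32.5, 37.4 and 30.1 in control fish, 21.8, 35.6 and 12.9 in fish of the 1 BL/s tank, and 39.6, 64.8 and 36.6 in those of the 2 BL/s tank. Every fish at 2 BL/s was above every fish at 1 BL/s, with the lowest value in fish 3 at 1 BL/s and the highest in fish 2 at 2 BL/s. The log2 fold change of 2 vs. 1 BL/s was 1.00 ± 0.41 (SE, edgeR, adjusted p = 0.897), and against the controls the 1 BL/s value was −0.50 ± 0.39 and the 2 BL/s value 0.50 ± 0.30, or 0.19 without fish 2.

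This call did not hold when some single fish were left out. The difference between the speeds was 0.72 without fish 3 at 1 BL/s, 0.69 when fish 2 at 2 BL/s was left out, and 0.42 with neither, and none of these passed the threshold. The call was also lost when fish 1 of the 1 BL/s tank was left out (0.92). In fish 2 at 2 BL/s the slow and red muscle markers were at 261 CPM, and in fish 3 at 1 BL/s the giant muscle proteins were at 6594. Their part in the hexokinase values was not tested. Hexokinase-2-like (Sa_45947.1.1), the isoform typical of muscle in mammals, had only 16, 9 and 7 counts in the 3 groups, a ratio of 0.423 at 2 BL/s to the controls (95% counting interval 0.147 to 1.09).

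Phosphoglucomutase links glycogen with glycolysis by moving the phosphate of glucose 1-phosphate to position 6. Phosphoglucomutase-1 (Sa_4795.1.1) held 99.8% of the counts of this step, with 96182, 124833 and 104963 normalized counts in control fish, 108052, 103081 and 135885 in fish of the 1 BL/s tank, and 121537, 109514 and 113118 in those of the 2 BL/s tank. The groups overlapped, and the log2 fold changes were 0.08 ± 0.19, 0.08 ± 0.13 and 0.00 ± 0.18 (1 BL/s and 2 BL/s vs. controls, then 2 vs. 1 BL/s). Phosphoglucomutase-1-like (Sa_8686.2.1) lay between 144 and 213 in all fish. Its log2 fold changes were 0.07 ± 0.22, −0.14 ± 0.22 and −0.21 ± 0.22.

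Phosphoglucomutase 5 (Sa_12190.1.1) is the exception of the family in mammals, where it has no enzyme activity and sits at cell adhesions. It had 54.9, 64.9 and 47.8 normalized counts in control fish, 58.3, 109 and 99.5 in fish of the 1 BL/s tank, and 61.4, 57.8 and 44.2 in those of the 2 BL/s tank. Fish 2 and 3 at 1 BL/s were above all the others, while fish 1 at 1 BL/s lay within their range. The log2 fold change was −0.69 ± 0.30 for 2 vs. 1 BL/s (edgeR, adjusted p = 0.897) and 0.66 ± 0.30 at 1 BL/s, which did not pass. The call between the speeds was lost with DESeq2 (−0.72), with limma-trend (−0.64), with total counts (−0.48) and without fish 3 at 1 BL/s (−0.62). Leaving out fish 2 of the 1 BL/s tank (−0.53), or fish 1 (−0.79), fish 2 (−0.75) or fish 3 (−0.57) of the 2 BL/s tank, also ended it.

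Phosphorylase b kinase turns on glycogen breakdown when calcium rises, and after phosphoglucomutase its subunits were the most counted members on the glycogen side. The catalytic gamma subunit of skeletal muscle (Sa_21496.6.1) had 4051, 5600.2 and 5543 normalized counts in control fish, 4323, 3934 and 3603 in fish of the 1 BL/s tank, and 5515, 4745 and 4958 in those of the 2 BL/s tank. All fish at 1 BL/s lay below all fish at 2 BL/s, and control fish 1 overlapped with the fish at 1 BL/s. The log2 fold change was 0.37 ± 0.18 between the speeds and −0.36 ± 0.20 at 1 BL/s, neither past the threshold by edgeR, and 0.01 ± 0.17 at 2 BL/s. The first value was 0.30 when fish 3 of the 1 BL/s tank was left out, and 0.56 and past the threshold with total counts.

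The large regulatory alpha subunit of skeletal muscle appeared as isoforms X2 (Sa_10526.3.1) and X3 (Sa_10526.4.1), whose identifiers share a stem and which may share reads. Isoform X2 had 2206, 3399 and 2913 normalized counts in control fish, 2454, 2037 and 729 in fish of the 1 BL/s tank, and 2453, 3019.7 and 2267 in those of the 2 BL/s tank. Isoform X3 had 333, 640.2 and 429 in control fish, 386, 296 and 54.3 in fish of the 1 BL/s tank, and 362, 471 and 348 in those of the 2 BL/s tank. In both, fish 3 at 1 BL/s was far below the other 8 fish, at 0.297 and 0.145 of their median. Control fish 2 was the highest for both, though by share of counts fish 2 at 2 BL/s was the highest for isoform X2. The log2 fold changes at 1 BL/s were −0.71 ± 0.40 and −0.93 ± 0.57, and −0.34 and −0.46 without fish 3, with no call in any of these, while that of isoform X2 passed without fish 1 at 1 BL/s (−1.05). The values at 2 BL/s were −0.13 ± 0.20 and −0.24 ± 0.26. Without control fish 2, isoform X2 had −0.56 and 0.01 for the slower and the faster tank, and isoform X3 had −0.64 and 0.04.

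The glycogen debranching enzyme had the same lowest and highest fish in normalized counts, though fish 2 at 2 BL/s was the highest for isoform X1 by share of counts. Isoform X2 (Sa_22552.1.1) had 757, 1296 and 947 normalized counts in control fish, 1037, 899.6 and 239 in fish of the 1 BL/s tank, and 801, 979.7 and 1095 in those of the 2 BL/s tank. Isoform X1 (Sa_9805.2.1) had 95.6, 251 and 135 in control fish, 153, 132 and 14.2 in fish of the 1 BL/s tank, and 121, 222 and 178 in those of the 2 BL/s tank. Again fish 3 at 1 BL/s was the lowest, at 0.248 and 0.0988 of the median of the other 8. The log2 fold changes of 1 BL/s vs. controls were −0.46 ± 0.47 and −0.67 ± 0.67, and without this fish they were −0.05 and −0.17. The 2 BL/s values were −0.06 ± 0.23 and 0.12 ± 0.36. Without control fish 2, isoform X2 had −0.24 and 0.17 for the slower and the faster tank, and isoform X1 had −0.20 and 0.59.

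Glycogen synthase, which extends the glycogen chains, is listed as glycogen [starch] muscle (Sa_39001.6.1), a description that lacks a word and was read as the muscle synthase. Its normalized counts were 492, 721 and 629.6 in control fish, 613, 560.1 and 249 in fish of the 1 BL/s tank, and 632, 655 and 559 in those of the 2 BL/s tank. Fish 3 at 1 BL/s lay below all other fish, and the rest overlapped. The log2 fold changes were −0.38 ± 0.34 at 1 BL/s, −0.07 without fish 3, and 0.01 ± 0.20 at 2 BL/s, and without control fish 2 they were −0.25 and 0.13. Glycogenin-1-like (Sa_6905.4.3), the primer on which glycogen is built, had only 10, 5 and 9 counts in the 3 groups.

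Glycogen phosphorylase, read from descriptions such as glycogen muscle form, was counted too thinly for a test. The muscle models Sa_18218.4.1 and Sa_49138.1.1 had 29 and 23 counts in control fish, 10 and 6 in fish of the 1 BL/s tank, and 10 and 15 in those of the 2 BL/s tank. The ratio to the controls was 0.358 (95% counting interval 0.156 to 0.757) and 0.271 (0.0903 to 0.685) at 1 BL/s. Against the controls, the 2 BL/s fish had a ratio of 0.333 (0.145 to 0.703) for the first model and 0.630 (0.306 to 1.26) for the second. The other forms went the other way. The brain form (Sa_26879.1.1) had 1, 8 and 6 counts in the 3 groups. Its ratio to the controls was 8.32 (1.12 to 369) at 1 BL/s and 5.80 (0.703 to 267) at 2 BL/s. For the liver form, described below, the ratios were 1.13 (0.458 to 2.84) and 2.37 (1.14 to 5.30). These intervals cover counting error only and leave out the spread between fish, which was not tested for these models. For the first muscle model, the controls had 2, 11 and 16 raw counts, the fish at 1 BL/s 5, 4 and 1, and those at 2 BL/s 3, 5 and 2, so that control fish 1 overlapped with both swimming groups.

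The liver form of glycogen phosphorylase (Sa_33.18.1) had 50 counts, of which 25 were in fish 3 at 2 BL/s and 0 to 7 in each other fish. That fish was also the highest for aldolase B (Sa_38154.1.1), the liver aldolase, with 47.0 normalized counts against 0 to 19.3 in the others. The liver and plasma markers (9 of 35 rows with counts) summed to only 5 counts in it, below the 58 of fish 2 at 1 BL/s. The connective tissue markers (8 of 31 rows with counts) were at 4787 CPM in it, against 1059 to 2302 in the others, and their part in both genes was not tested. Aldolase B was tested only between the speeds, at 0.84 ± 0.81.

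Glucose-6-phosphate isomerase (Sa_10670.5.1), which makes fructose 6-phosphate, had 80879, 77586 and 73253 normalized counts in control fish, 68866, 73548 and 103670.0 in fish of the 1 BL/s tank, and 91520.4, 78069 and 75867 in those of the 2 BL/s tank. The 1 BL/s tank held both the highest (fish 3) and the lowest value (fish 1), but by share of counts the highest was fish 2 at 2 BL/s (2.14%) and the lowest control fish 3 (1.57%), with fish 3 at 1 BL/s at 1.92%. Log2 fold changes were 0.08 ± 0.20, 0.09 ± 0.13 and 0.01 ± 0.20. Scaled by total counts, it was the only member called at 2 BL/s vs. controls (0.31), where the median of all models was 0.23.

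Aldolase splits fructose 1,6-bisphosphate, and it had the largest fold change among the members called. Aldolase A (Sa_16924.2.1), the muscle form in mammals, had 57.9, 44.0 and 37.2 normalized counts in control fish, 78.3, 68.1 and 172 in fish of the 1 BL/s tank, and 25.5, 35.9 and 78.9 in those of the 2 BL/s tank. All fish at 1 BL/s were above all controls, and fish 3 at 2 BL/s was within the range at 1 BL/s. It was 2.26-fold higher at 1 BL/s, a log2 fold change of 1.18 ± 0.39 (edgeR, adjusted p = 0.966), and lower at 2 than at 1 BL/s by −1.15 ± 0.48 (adjusted p = 0.897). The value of 2 BL/s vs. controls was 0.02 ± 0.41.

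The size of the aldolase A difference depended on fish 3 at 1 BL/s. Without it the value at 1 BL/s was 0.66 and between the speeds −0.65, or −0.48 when fish 2 at 2 BL/s was left out too, and none of these passed the threshold. The first was also lost when control fish 3 was left out (1.04). The second was also lost with total counts (−0.88) or when fish 1 (−0.87) or fish 2 (−1.01) of the 2 BL/s tank was left out. The red blood cell markers (3 of 8 rows with counts) were at 28.0 to 48.4 CPM in control fish, 58.8 to 173 in fish of the 1 BL/s tank and 26.9 to 91.5 in those of the 2 BL/s tank, with the highest value in the same fish 3 at 1 BL/s. Leukocyte markers (5 of 22 rows with counts) were at 46.3 to 94.0, 114 to 119 and 58.4 to 164. Their part in the aldolase A values was not tested.

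A second aldolase A model (Sa_14227.1.1) ordered the extreme fish alike. Its normalized counts were 21.3, 40.7 and 30.1 in control fish, 44.4, 24.4 and 89.1 in fish of the 1 BL/s tank, and 11.3, 30.9 and 37.6 in those of the 2 BL/s tank. Fish 3 at 1 BL/s was again the highest and fish 1 at 2 BL/s the lowest, and the groups overlapped. The log2 fold changes were 0.75 ± 0.47, −0.20 ± 0.44 and −0.95 ± 0.53, none past the threshold. Without fish 3 at 1 BL/s the first was 0.17 and the last −0.38, while both passed, at 1.08 and −1.32, when fish 2 of that tank was left out. Reads that match both models could have been split between them or left out.

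Triosephosphate isomerase (Sa_17271.1.1), which interconverts the products of aldolase, varied little. It had 154771, 144328 and 159413 normalized counts in control fish, 148365, 147846 and 183655 in fish of the 1 BL/s tank, and 162319.9, 143966 and 139248 in those of the 2 BL/s tank. Fish 3 at 1 BL/s was the highest, and the groups overlapped. By share of counts it was within the range of the others (3.39%, against 3.16% to 3.95%). On the log2 scale, the fold changes were 0.06 ± 0.17, −0.04 ± 0.12 and −0.09 ± 0.18.

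GAPDH (Sa_31172.5.1) was the most counted model of all the members. It had 780515, 753542 and 822130.5 normalized counts in control fish, 649860.4, 737791 and 939671 in fish of the 1 BL/s tank, and 765765, 662742 and 732102 in those of the 2 BL/s tank. The fish at 1 BL/s included both the lowest and the highest value, so that the groups overlapped. By share of counts fish 3 at 1 BL/s was within the range (17.4%), and fish 3 at 2 BL/s was the highest (18.7%). Its log2 fold changes were −0.02 ± 0.19, −0.12 ± 0.11 and −0.09 ± 0.19. The sign of the second value depended on the scaling, with 0.10 by total counts. GAPDH-like (Sa_46768.1.1) spread more widely, from 4731 in fish 1 at 2 BL/s to 13923 in fish 2 at 1 BL/s, with log2 fold changes of 0.17 ± 0.26, −0.24 ± 0.29 and −0.41 ± 0.32.

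Phosphoglycerate kinase 1 (Sa_9678.4.1) makes the first ATP of glycolysis. It had 14224, 19529.7 and 16186 normalized counts in control fish, 14416, 14896 and 14418 in fish of the 1 BL/s tank, and 18685, 15467 and 16839 in those of the 2 BL/s tank. All fish at 2 BL/s were above all fish at 1 BL/s, and the controls covered both ranges. The log2 fold change between the speeds was 0.24 ± 0.17, not past the threshold by edgeR with TMM, and 0.43 and past it with total counts. Against the controls it was −0.20 ± 0.18 and 0.03 ± 0.16.

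Phosphoglycerate mutase 2 (Sa_25136.3.1), the muscle form in mammals, had 109753, 121586 and 123319 normalized counts in control fish, 111055, 119062 and 154913 in fish of the 1 BL/s tank, and 117052, 109088 and 106492 in those of the 2 BL/s tank. Fish 3 at 1 BL/s was above all others in normalized counts, but by share of counts it held 2.86% and fish 2 at 2 BL/s 2.99%. For the 3 comparisons, log2 fold changes were 0.11 ± 0.18, −0.09 ± 0.12 and −0.20 ± 0.19. Phosphoglycerate mutase 1 (Sa_11531.3.1), the form of brain and other tissues in mammals, had 36.2 normalized counts in that fish and 3.99 to 16.5 in the others. It was tested only between the speeds, at −1.26 ± 0.62, and did not pass. It was −0.64 without fish 3 at 1 BL/s, and passed at −1.64 when fish 2 of that tank and at −1.90 when fish 3 of the 2 BL/s tank was left out.

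Enolase makes phosphoenolpyruvate. Beta-enolase (Sa_4480.1.2), the muscle form in mammals, was the most variable of the members named by rule and tested, with a coefficient of variation of 79.0% over the 9 fish and 72.2, 11.0 and 163 normalized counts in control fish, 62.7, 92.5 and 3.88 in fish of the 1 BL/s tank, and 35.9, 43.9 and 58.2 in those of the 2 BL/s tank. Control fish 2 and fish 3 at 1 BL/s were low, and control fish 3 was high. The log2 fold changes of −0.62 ± 0.93 and −0.84 ± 0.67 against the controls and −0.22 ± 0.70 between the speeds did not pass the threshold by edgeR. The value at 2 BL/s became −1.36 and passed the threshold without control fish 2, and 2 vs. 1 BL/s became −0.75 and passed without fish 3 at 1 BL/s. A sister model with the same identifier stem (Sa_4480.1.4) had 18 of its 24 raw counts in control fish 3, the fish with the highest beta-enolase. The other sister model with counts (Sa_4480.1.1) had 15 of its 65 raw counts in that fish and 2 to 10 in each other fish.

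Pyruvate kinase PKM-like (Sa_7301.8.1), which makes the last ATP, was the steadiest of the 8 members with at least 100000 counts, with a coefficient of variation over the 9 fish of 7.70%. It had 106599.7, 105699.5 and 107168 normalized counts in control fish, 91449, 107142 and 106880.0 in fish of the 1 BL/s tank, and 103772, 88146 and 93423 in those of the 2 BL/s tank. All fish at 2 BL/s were below all controls in normalized counts, by a log2 fold change of −0.16 ± 0.12 that did not pass the threshold by edgeR. With total counts the value was 0.06. By share of counts, the fish at 2 BL/s (2.387% to 2.416%) lay within the range of the controls (2.176% to 2.421%). The other values were −0.07 ± 0.16 at 1 BL/s and −0.08 ± 0.17 between the speeds.

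L-lactate dehydrogenase A chain (Sa_14981.3.1) turns pyruvate into lactate. It had 156911, 214046 and 154811 normalized counts in control fish, 158272, 159555 and 180976 in fish of the 1 BL/s tank, and 176284, 153956 and 175407 in those of the 2 BL/s tank. Control fish 2 was above all the others, which overlapped. The log2 fold changes were −0.08 ± 0.19, −0.05 ± 0.15 and 0.03 ± 0.17, and without control fish 2 the first of these was 0.08 and the second 0.11.

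**Figure D3:**
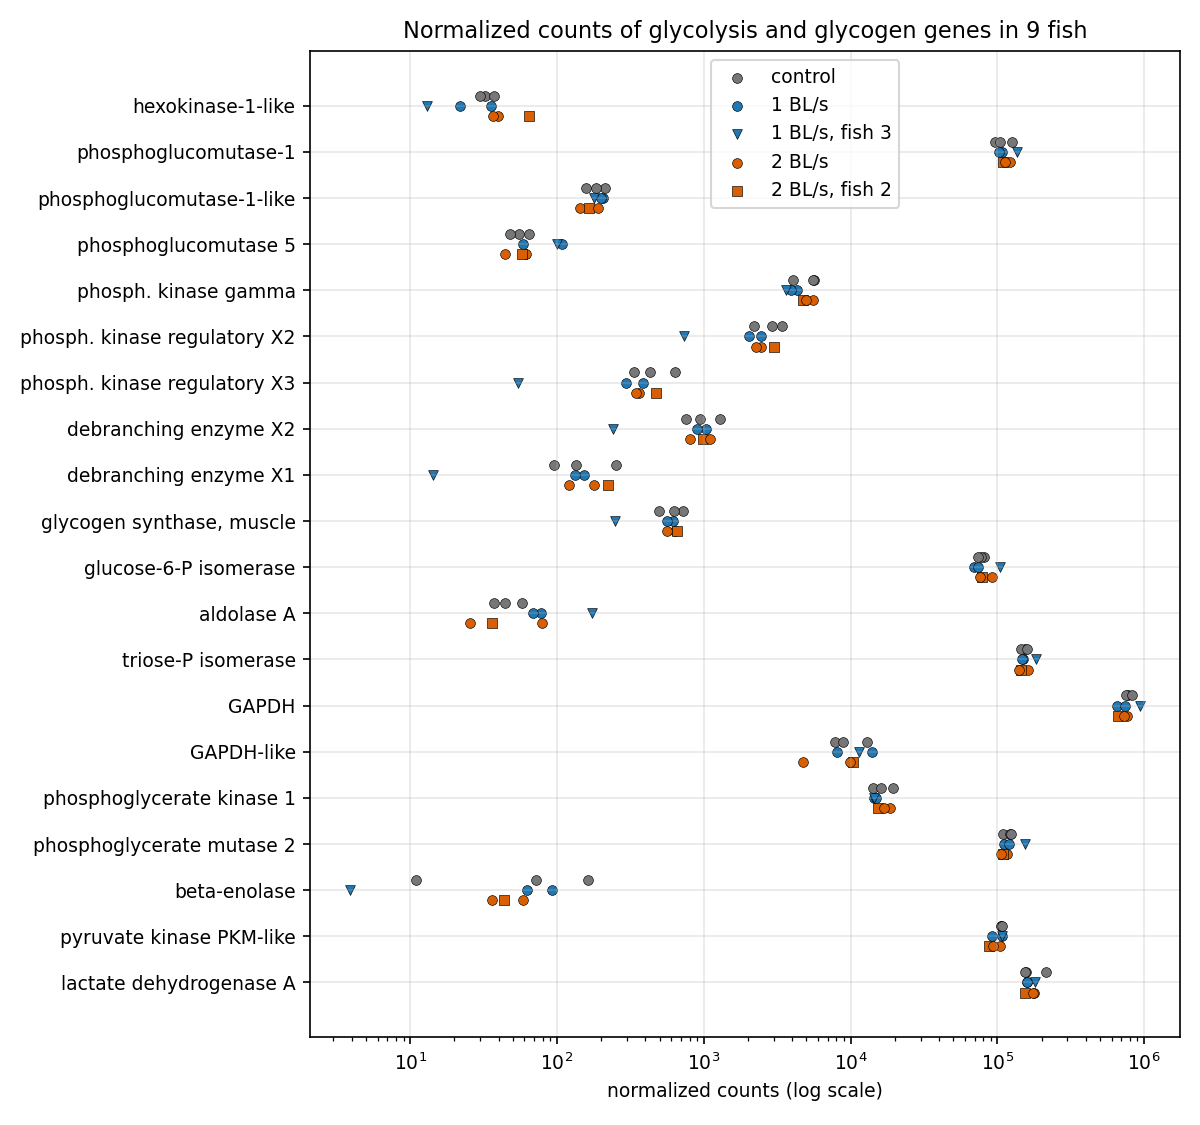
Normalized counts (log axis) of the 20 named and tested members in every fish, by group, with fish 3 at 1 BL/s as a triangle and fish 2 at 2 BL/s as a square. The triangle lies left of all other points for the gamma and both regulatory kinase models, both debranching models, glycogen synthase, beta-enolase and hexokinase-1-like. It lies right of them for aldolase A, GAPDH, triosephosphate isomerase, phosphoglycerate mutase 2, phosphoglucomutase-1 and glucose-6-phosphate isomerase.

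Across the 8 members with at least 100000 counts, log2 fold changes ranged from −0.20 to 0.11 at 1 BL/s, from −0.16 to 0.09 at 2 BL/s and from −0.20 to 0.24 between the speeds, with standard errors of 0.11 to 0.20. The highest fish was 1.22-fold to 1.51-fold above the lowest in these members. None of the 8 was called in any of the 3 comparisons by edgeR with TMM. Their signs depended on the scaling and on single fish, with 3 positive and 5 negative values at 2 BL/s vs. controls but 8 positive values, from 0.06 to 0.31, with total counts, where the median of all models was 0.23. At 1 BL/s, 4 were positive and 4 negative, and without fish 3 all 8 were negative, from −0.19 to −0.04, with 0 called. A p that misses the threshold does not show equal levels. With 3 fish a group, some observed differences of about 2 standard errors were not called, as for the kinase gamma subunit (0.37 ± 0.18). True differences of that size or larger can also be missed.

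Many of the extreme values came from the same fish. Of the 27 members tested, fish 3 at 1 BL/s was below all 8 other fish in 9 and above all of them in 11, and within their range in 7. The share of all models in which this fish was extreme was not computed. In the principal component analysis over all models past the filter it also stood apart (53.6 on the first axis, the others −15.0 to −0.41). The tally is therefore not shown to be particular to the members. The 9 low members were the gamma, beta and both alpha kinase subunit models, both debranching enzyme models, glycogen synthase, beta-enolase and hexokinase-1-like. The beta subunit (Sa_26010.1.1) had 19.4 normalized counts in it and 75.5 to 148 in the others, with a log2 fold change of −0.73 ± 0.50 at 1 BL/s and −0.30 without it, neither past the threshold. The 11 high members were GAPDH, triosephosphate isomerase, phosphoglycerate mutases 1 and 2, phosphoglucomutase-1 and -2, glucose-6-phosphate isomerase and a second model like it, both aldolase A models and alpha-enolase-like. With total counts as the scaling, the 9 low members were still below all other fish and 3 more joined them, but 4 of the 11 remained above, namely both aldolase A models, phosphoglycerate mutase 1 and the second isomerase model. None of the 8 members with at least 100000 counts was then above the other fish, and 2 of them were below. Giant muscle proteins were also lowest in it (6594 CPM), and their part in the members' values was not tested. Control fish 2 was the highest fish for 8 of the 16 members with at least 1000 counts in normalized counts, and by share of counts for 4, among them lactate dehydrogenase A and phosphoglycerate kinase 1. By share of counts, fish 2 at 2 BL/s was the highest for 8 of the 16, and for 0 in normalized counts. The same tallies over all models were not computed.

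**Figure D4:**
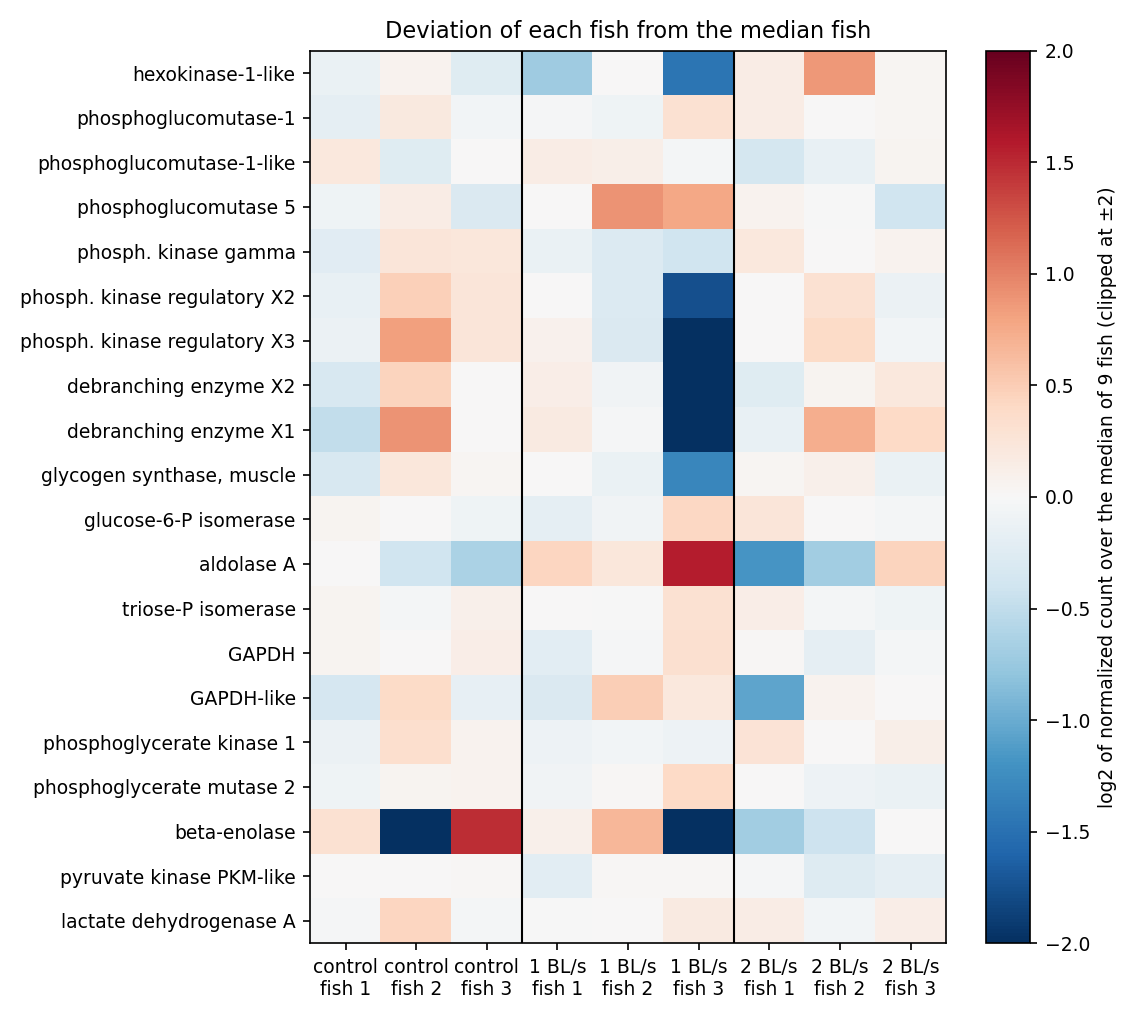
Deviation of each fish (columns) from the median of the 9 fish in 20 members (rows), as log2 of the normalized count over that median, with the colour clipped at ±2. Fish 3 at 1 BL/s is dark blue for the regulatory kinase models, the debranching models and beta-enolase. It is also blue for glycogen synthase and hexokinase-1-like, and red for aldolase A. Most cells of the abundant enzymes are pale.

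Genes around the pathway were read from 6 further lists. In glucose and lactate transport 4 or 5 of 78 rows could be tested, in the regulation of glycolysis and pyruvate entry 9 or 10 of 74, in gluconeogenesis 1 of 15, in the pentose phosphate pathway 2 of 21, among glycogen partners 6 of 30, and in the NADH shuttles 5 of 19. None was called in any comparison except 1 of the 5 shuttle genes at 1 BL/s, beside 4.02% of all models. This was cytoplasmic malate dehydrogenase (Sa_30954.1.1, listed as malate cytoplasmic), which carries reducing power out of the cytosol, with 99.6, 184 and 160.3 normalized counts in control fish, 205, 374 and 295 in fish of the 1 BL/s tank, and 136, 304 and 299 in those of the 2 BL/s tank. All fish at 1 BL/s were above all controls. Its log2 fold change was 0.97 ± 0.31 at 1 BL/s (edgeR, adjusted p = 0.966) and 0.74 ± 0.34 at 2 BL/s, which did not pass.

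A gene at the entrance and a gene at the exit of the pathway varied widely between fish of the same group. Glucose transporter 1-like (Sa_6969.2.1), which admits glucose to the cell, had 229, 1087 and 361 normalized counts in control fish, 228, 760.4 and 346 in fish of the 1 BL/s tank, and 166, 591 and 638 in those of the 2 BL/s tank. A pyruvate dehydrogenase kinase (Sa_1161.3.1), which closes the entry of pyruvate into the mitochondrion's oxidation, had 68.1, 1066 and 608 in control fish, 91.4, 531 and 665 in fish of the 1 BL/s tank, and 218, 387 and 361 in those of the 2 BL/s tank. Control fish 2 was the highest for both. Neither was called in any comparison by edgeR. Other genes of the exit spread less. Mitochondrial pyruvate carrier 1 (Sa_33595.5.1) had 251 to 351 normalized counts per fish, and a pyruvate dehydrogenase E1 subunit (Sa_10527.2.1) had 397 to 607.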

How the data were processed

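White muscle RNA of 9 fish (3 per group) was measured by stranded mRNA sequencing. The authors aligned reads to the gilthead seabream reference genome at NCBI (the study links it without a build name) with TopHat2 2.0.13. They report that only a minority of the reads could be mapped. Secondary alignments were removed with SAMtools 1.2, and counting was done with HTSeq 0.6.1p1. The strand setting of the counting is not stated in the sources used here, and near-identical copies are uncertain. The authors deposited raw counts per gene model, not normalized, in 1 table per pair of groups. A fish had the same counts in both tables that hold it (0 values differed). The deposited tables also hold the authors' DESeq means, fold changes and p-values, which were not used, and 2 columns without a sample label were left out.

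Counts were tested by edgeR 4.0.16 (R 4.3.3, limma 3.58.1) with TMM and filterByExpr, group as the only term, on the 6 fish of each comparison. The standard error is the size of the log2 fold change divided by the square root of F. The test was checked on simulated counts. Ratios of thin counts have exact conditional intervals. Alternatives were filters, scalings, DESeq2 1.42.0, limma-trend, all 9 fish in a single fit, a block for sample number, and leaving out each fish. Members named were those called, the most counted of each step and those with at least 1000 counts. The members and lists were chosen with earlier results of these data known. Deposited descriptions lack some words (protein, phosphorylase), so that some enzymes were read from what remains. No sequences or gene lengths were used. Python 3.11.15 with pandas 2.3.3, scipy 1.17.1 and matplotlib 3.10.9 did the rest.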

Additional observations from a re-analysis of the deposited data

How the results depend on the processing

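The number of members called moved with the setting. Brackets give the calls among all models tested. At 1 BL/s vs. controls it was 1 of 25 members (157 of 3902 models). It became 8 of 46 without a low-count filter (527 of 13211) and 2 of 26 with at least 10 counts in 3 fish (167 of 4003). With all 9 fish in a single fit it was 3 of 27 (216 of 4241), and with the replicate block 2 of 25 (161 of 3902). At an adjusted p of 0.05 it was 0 of 25 (0 of 3902). When each fish was left out in turn it was 0 to 3 of 26 to 28 (125 to 229 of 4026 to 4307). At 2 BL/s vs. controls it was 0 of 25 (176 of 3947), and became 5 of 46 without a filter (565 of 13487). With total counts it was 1 of 25 (284 of 3947), and with all 9 fish 1 of 27 (146 of 4241). When leaving out a fish it was 0 to 2 of 27 or 28 (117 to 273 of 4222 to 4337). Between the speeds it was 3 of 27 (168 of 3963), and became 10 of 47 without a filter (633 of 13407) and 0 of 27 at an adjusted p (0 of 3963). When leaving out a fish it was 0 to 4 of 27 or 28 (120 to 299 of 4187 to 4349). Without both fish 3 at 1 BL/s and fish 2 at 2 BL/s it was 0 of 27 (147 of 4153), an alternative chosen after seeing the data. The members' median log2 fold change became 0.16 at 2 BL/s and 0.22 between the speeds with total counts, where the median of all models was 0.23 in both. When leaving out a fish it ranged from −0.10 to −0.02 at 1 BL/s, from −0.14 to 0.04 at 2 BL/s, and from −0.11 to 0.0525 between the speeds. Without GAPDH and lactate dehydrogenase A, the 2 most counted members, the members' share of counts was 12.98% for control fish, 13.4% for fish at 1 BL/s and 14.8% for those at 2 BL/s. Of 857 values of uncalled named members under alternatives, 841 stayed uncalled and 16 passed the threshold, and 84 changed sign. Of 63 values of the 4 called ones, 42 stayed called, 21 did not, and 0 changed sign. Where not stated above, the cause was not tested.

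Over all models tested, 157 of 3902, 176 of 3947 and 168 of 3963 were called in the 3 comparisons. Without a filter, 527 of 13211, 565 of 13487 and 633 of 13407 were called. Whether fish with the same number shared anything beyond that number cannot be told with 3 fish a group. The correlations of their deviations were 0.118, 0.176 and 0.0179 between the 1 BL/s tank and the controls. They were 0.0445, 0.0606 and 0.0170 between the 2 BL/s tank and the controls, and −0.03, 0.134 and 0.139 between the speeds. With the replicate block the members called were 2 of 25, 0 of 25 and 3 of 27, beside 161 of 3902, 183 of 3947 and 178 of 3963 models. At 1 BL/s the alpha kinase subunit isoform X3 (Sa_10526.4.1, −1.24) was added. Between the speeds phosphoglucomutase 5 (Sa_12190.1.1, −0.66) was lost. Another member, lower at 2 BL/s, was called in its place, so that 1 was higher and 2 were lower there, as without the block. Relative counting error was largest in the steps with at most 1003 counts over the 9 fish (hexokinase, aldolase, enolase, glycogen phosphorylase, glycogenin). The standard errors also hold the spread between fish. At 1 BL/s vs. controls that of debranching enzyme isoform X1 (0.67) was larger than that of aldolase A (Sa_16924.2.1, 0.39).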

Other observations

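Other genes of glycogen control were tested and none was called by edgeR at an unadjusted p of 0.05. Protein phosphatase 1 regulatory subunit 3D-like (Sa_44591.3.1), which brings the phosphatase to glycogen, had 70.1, 39.6 and 91.2 normalized counts in control fish, 103, 53.9 and 59.4 in fish of the 1 BL/s tank, and 157 and 154 in 2 of the 3 fish at 2 BL/s, with 57.6 in the other. Its log2 fold change at 2 BL/s was 0.88 ± 0.42. Lysosomal alpha-glucosidase-like (Sa_38966.1.1), the glycogen-degrading enzyme of the lysosome, had 16.8 normalized counts in fish 3 at 1 BL/s and 82.3 to 218 in the other fish. Phosphatase 1 regulatory subunit 3A (Sa_22361.6.1), the muscle glycogen-targeting subunit, was likewise at 16.8 in that fish, against 66.1 to 143 in the others. For the other glycogen partners tested at 1 BL/s vs. controls, that fish lay within the range of the others. It had 1571 for subunit 3F (1542 to 2911 in the others) and 74.9 for subunit 3C (35.7 to 192). For NHLRC1 it had 19.4 (6.58 to 29.5), and for subunit 3D-like 59.4 (39.6 to 157).

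Fructose-1,6-bisphosphatase isozyme 2-like (Sa_26398.3.1), the muscle enzyme that runs the aldolase substrate backwards, had 4901 to 7229 normalized counts per fish, with log2 fold changes of −0.17 ± 0.19, −0.05 ± 0.16 and 0.13 ± 0.19, while all aldolase models together had 1003 raw counts over the 9 fish. Cytoplasmic glycerol-3-phosphate dehydrogenase (Sa_27820.1.1), which takes up NADH from glycolysis, had 31369 to 41943 normalized counts per fish and log2 fold changes of −0.16 ± 0.17, 0.07 ± 0.12 and 0.23 ± 0.17.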
